A study of Mus musculus with 17 samples.

Results

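Replication histone genes and genes of small noncoding RNAs were examined in the colon of a mouse model of Gulf War illness (GWI). The members were chosen by gene symbol alone. They are the clustered histone genes of the Hist1 to Hist4 families, the small nucleolar RNAs (snoRNAs, symbols Snora and Snord followed by a number), the small Cajal body RNAs (scaRNAs, symbol Scarna) and the RNAs Rmrp, Rpph1 and Rn7sk. This gave 220 of the 23719 entries of the count table, with 218 different symbols because Snora16a and Snord80 each had 2 entries. Of the members, 68 were histone genes, 149 were snoRNAs or scaRNAs and 3 were the remaining noncoding RNAs. The annotation lists 3 of the 68 histone genes, Hist1h2aj, Hist1h2al and Hist3h2bb-ps, as pseudogenes, and these were not among the tested ones.

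Colon RNA was sequenced in 9 Control mice, which drank water, and 8 GWI mice, all of them C57BL/6 males 32 to 34 weeks old. For 7 days the GWI mice drank water with pyridostigmine bromide (PB), which reversibly blocks acetylcholinesterase, at 2 mg/kg. They then recovered for 21 days and were sampled at day 30. The model therefore covers a single oral agent in males of an inbred strain. The question was which genes differed in the colon long after the exposure had ended. Each value is the number of read pairs assigned to a gene in a poly(A)-selected library. Each library is taken throughout as 1 mouse, which the sources used here do not state. Libraries held between 16744096 and 20741212 counts in the Control group (median 17761682) and between 16293537 and 18389686 in the GWI group (median 17428512).

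Replication histone genes are transcribed mainly in S phase and supply the core and linker histones that package new DNA. Their messenger RNAs typically end in a short hairpin bound by the stem-loop binding protein instead of a poly(A) tail, although several of these genes also make polyadenylated transcripts outside S phase. The snoRNAs and scaRNAs guide chemical modification of ribosomal and spliceosomal RNA, and most are cut out of the introns of host genes, while Rmrp, Rpph1 and Rn7sk are RNA polymerase III transcripts that work inside ribonucleoprotein particles. In the colon, dividing cells lie near the base of the crypts. Since mature forms of most of these RNAs lack a tail, their counts in such libraries do not measure the full amount in the tissue. Which form of each RNA was captured was not tested.

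Levels are given as counts per 1000000 (CPM) of the library size after scaling by the trimmed mean of M values (TMM). Of the 220 members, 31 had enough counts to be tested, 107 had counts but failed the filter on low counts and 82 had no count in any mouse. By class, 22 of 68 histone genes, 7 of 149 snoRNAs and scaRNAs and 2 of the 3 polymerase III RNAs were tested. A gene is called here at an adjusted p under 0.05 over the 14146 tested genes of the table. Over all tested genes, 1903 (13.5%) were lower in GWI colons, 1889 (13.4%) were higher, and the median log2 fold change was −0.06. Scaling by upper-quartile factors moved this split to 2992 lower and 1214 higher.

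Among the tested members 8 (25.8%) were lower in GWI colons and 2 (6.45%) were higher. The histone genes had 4 lower (18.2%) and 2 higher (9.09%) of 22, and their median log2 fold change was −0.05. The tested snoRNAs and scaRNAs had 3 lower (42.9%) and 0 higher of 7, with a median of −0.33. No further one was higher at an unadjusted p under 0.05 (0 of 7) or by DESeq2 (0), while limma-voom called 1 of them higher. Of Rpph1 and Rn7sk, Rpph1 was lower. The filter asked for about 10 counts in at least 8 of the 17 mice. Among the 8 lower members Snord118 reached that level in Control mice and in 0 GWI mice, and Hist1h1b, Hist2h2ac, Hist1h4d and Rpph1 reached it in 1 or 2 GWI mice. Such members were tested because they were high in Control mice, so the shares of lower calls and the medians describe the tested members and not the classes. By the unadjusted p under 0.05 and a log2 fold change under −1, 250 genes of the table (1.77%) were lower, and 92 (0.65%) were higher with a log2 fold change over 1; 7 members were lower and 1 was higher by that rule. Some mice share the first part of a label that no source used here explains, which leaves 6 such parts in the Control and 4 in the GWI group. With counts summed over each part, a fit chosen after the data were seen, 0 of the 10 members were called by edgeR (adjusted p 0.0848 to 0.248), and the table as a whole had 0 lower and 6 higher calls. All 10 kept their sign, and 9 had an unadjusted p under 0.05. With the part as a random block in limma-voom, chosen later still, the 10 were called. That fit called 3566 genes lower and 3325 higher over the 14146 tested genes, so a call by it sets the members little apart. What the part stands for is not given in the sources used here. In bulk tissue, fewer cells of a type and less RNA per cell cannot be told apart.

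**Figure D1:**
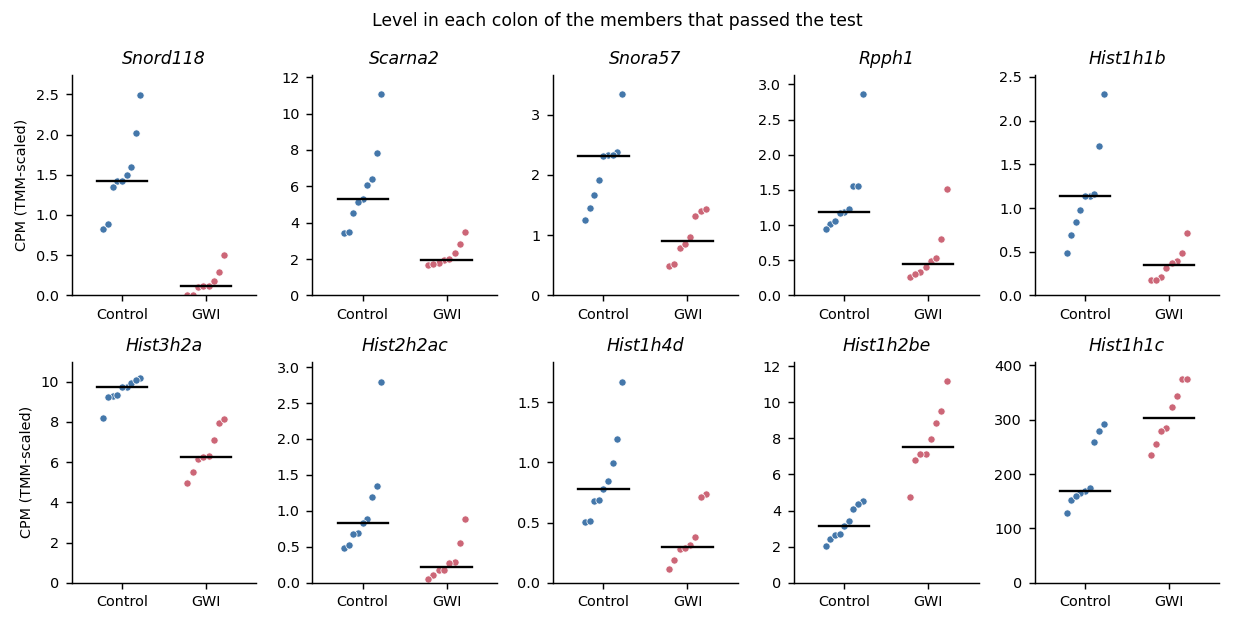
Level of the 10 called members in each colon, in CPM after TMM scaling on a linear axis that starts at 0, for 9 Control and 8 GWI mice. Each point is a mouse and each line is the group median; Snord118 ranged from 0.821 to 2.49 CPM in Control mice and from 0 to 0.505 CPM in GWI mice.

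The linker histones H1 bind the DNA between nucleosomes. Hist1h1c (chr13:23738808-23740367 of GRCm38, plus strand) ranged from 129 to 292 CPM in Control colons (median 169) and from 236 to 375 CPM in GWI colons (median 304). It rose with a log2 fold change of 0.64 (SE 0.17, adjusted p = 0.0107). Above every Control mouse stood 4 of the 8 GWI mice, and the groups overlapped because Control mice 1, 2 and 6 lay well above the other Control mice. Per kilobase of annotated exon it was the most abundant member tested, with a mean of 160 CPM per kb over the 17 mice. Hist1h1b (chr13:21779883-21780625, minus strand), another linker histone, moved the other way. Its level was 0.487 to 2.30 CPM in Control colons (median 1.14) and 0.172 to 0.713 CPM in GWI colons (median 0.346). The log2 fold change was −1.68 (SE 0.34, adjusted p = 0.0027), and 6 of 8 GWI mice lay below every Control mouse. GWI 8 and GWI 7 were the GWI mice that reached the lowest Control mouse, Control 6. Hist1h1d and Hist1h1e did not pass the test, with log2 fold changes of −0.20 and 0.77.

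The core histones H2A and H2B pair with each other on the nucleosome. Hist1h2be, which encodes an H2B, was the other member that rose. It lay between 2.02 and 4.55 CPM in Control colons (median 3.15) and between 4.74 and 11.2 CPM in GWI colons (median 7.55), a log2 fold change of 1.28 (SE 0.19, adjusted p = 0.000481). Every GWI mouse was above every Control mouse, as in 259 of the tested genes of the table (1.83%), and GWI 1 came closest to the Control range. The annotated gene (chr13:23583670-23621124, minus strand) has exons that overlap those of Hist1h1e and Gm11398 on the same strand, so its count cannot be fully told apart from theirs. Hist1h1e itself had 0.637 to 3.69 CPM in Control and 1.51 to 4.91 CPM in GWI colons (adjusted p = 0.0937). Without Control 9 its log2 fold change was 1.08 (adjusted p = 0.01) and it passed the test, as it did by limma-voom (1.32, adjusted p = 0.000464).

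Hist3h2a (chr11:58954685-58956830, plus strand), an H2A gene outside the large cluster, had 8.21 to 10.2 CPM in Control colons (median 9.71) and 4.97 to 8.14 CPM in GWI colons (median 6.26). Its log2 fold change was −0.54 (SE 0.11, adjusted p = 0.00281). Although this change was small, every GWI mouse lay below every Control mouse, which held for 74 tested genes (0.523%). GWI 8 at 8.14 CPM and Control 3 at 8.21 CPM were nearly level. Its exons overlap an exon of Trim17 on the same strand, and 31.5% of its windows of 50 bases also occur in Trim17 transcripts. The H2A gene Hist2h2ac (chr3:96220361-96220880, minus strand) had 0.49 to 2.79 CPM in Control colons (median 0.828) and 0.0574 to 0.883 CPM in GWI colons (median 0.223). It fell with a log2 fold change of −1.73 (SE 0.46, adjusted p = 0.012). Control 9 was far above the other Control mice, GWI 5 was the highest GWI mouse, and 6 GWI mice lay below every Control mouse. Of its windows, 55% also occur in transcripts of other genes, and an exon of Gm44492 lies opposite it, so its count is uncertain.

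Abundant H2B genes did not follow Hist1h2be. Hist1h2bc, the next most abundant tested member after Hist1h1c at a mean of 132 CPM per kb, ranged from 109 to 211 CPM in Control colons (median 135) and from 119 to 183 CPM in GWI colons (median 162). Its log2 fold change was 0.04 (SE 0.13, adjusted p = 0.84), and the GWI range lay inside the Control range. Hist2h2be, at a mean of 6.58 CPM per kb, ranged from 9.79 to 23.4 CPM in Control colons (median 17) and from 13.6 to 20.3 CPM in GWI colons (median 16.3), with a log2 fold change of −0.05 (SE 0.14, adjusted p = 0.788). Of the windows of Hist1h2bc, 30.6% also occur in transcripts of other genes.

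Histone H4, with H3, forms the centre of the nucleosome. Of the 13 H4 genes 6 were tested, and Hist1h4d (chr13:23581598-23582735, plus strand) passed. It had 0.505 to 1.67 CPM in Control colons (median 0.78) and 0.115 to 0.737 CPM in GWI colons (median 0.299), a log2 fold change of −1.20 (SE 0.34, adjusted p = 0.0158). The groups overlapped through GWI 7 and GWI 8, and the other 6 GWI mice lay below every Control mouse. The H4 genes with the highest level per kb, Hist1h4i and Hist1h4h (means of 6.58 and 4.13 CPM per kb), had log2 fold changes of −0.08 (adjusted p = 0.784) and 0.12 (adjusted p = 0.724). Other genes' transcripts share 28.9% and 45.8% of their windows. Of the 12 H3 genes 2 were tested. Neither was called by edgeR, by DESeq2 or by limma-voom, and 0 of the 2 had an unadjusted p under 0.05.

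The summed level of the 68 histone genes came mostly from Hist1h1c and Hist1h2bc. It ranged from 295 to 546 CPM in Control colons (median 393) and from 408 to 621 CPM in GWI colons (median 522), and 3 GWI mice lay above every Control mouse. The sum over the H1 genes was 133 to 297 CPM (median 172) in Control and 238 to 380 CPM (median 308) in GWI colons. The H2A genes summed to 12.9 to 22.2 CPM (median 14.6) in Control and 9.71 to 15.2 CPM (median 10.6) in GWI colons, with 7 of 8 GWI mice below every Control mouse. Most of the H2A sum came from Hist3h2a. The H2B genes summed to medians of 163 CPM in Control and 189 CPM in GWI colons, mostly from Hist1h2bc. For H3 the medians were 4.49 and 3.35 CPM, with 5 GWI mice below every Control mouse. For H4 they were 12.7 and 11.0 CPM, with 3 GWI mice below every Control mouse.

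**Figure D2:**
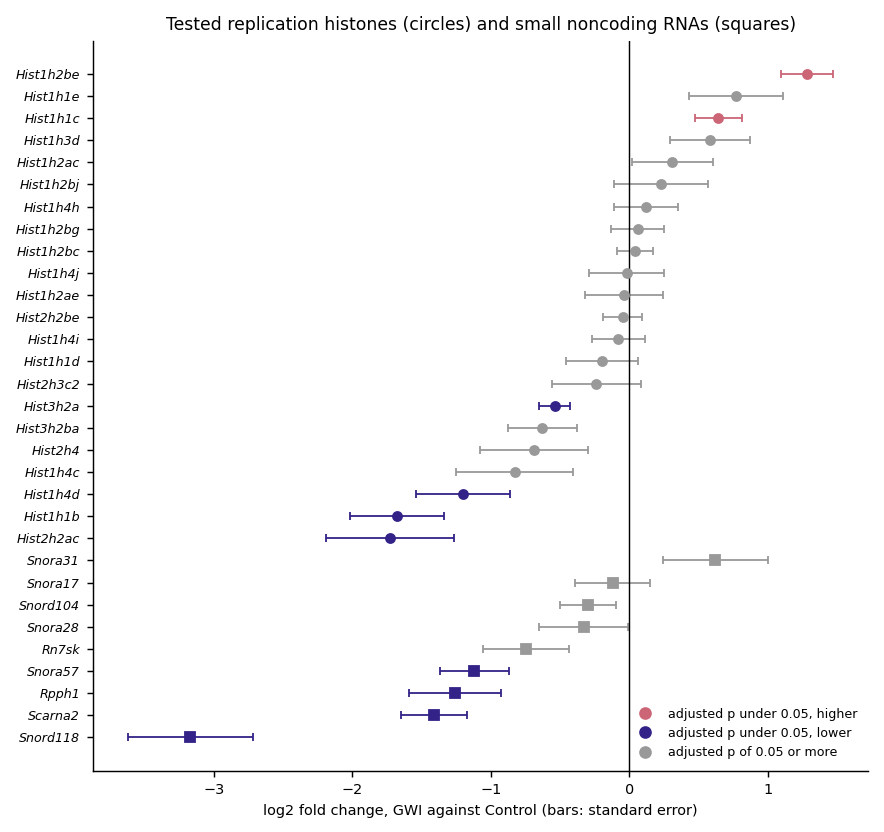
Log2 fold change of GWI against Control for the 31 tested members, with bars for the standard error; circles are histone genes and squares are noncoding RNAs. Dark blue marks an adjusted p under 0.05 and lower, red the same and higher, and grey the 21 members that did not pass; the values run from −3.17 for Snord118 to 1.28 for Hist1h2be.

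The box C/D snoRNAs guide ribose methylation or take part in cleavage of the ribosomal RNA precursor. Snord118, also called U8, belongs to the latter kind and is needed to make the RNAs of the large ribosomal subunit. It had 13 to 48 counts in Control mice and 0 to 8 counts in GWI mice, which is 0.821 to 2.49 CPM (median 1.42) against 0 to 0.505 CPM (median 0.115). Its log2 fold change was −3.17 (SE 0.45, adjusted p = 0.000396). It passed the filter through the Control mice alone, and 17.4% of its windows also occur in transcripts of Gm24208. No GWI mouse reached the lowest Control mouse, GWI 1 and GWI 2 had no count, and GWI 5 was the highest GWI mouse. Snord104, a box C/D guide with the highest level per kb among the tested noncoding members (31.8 CPM per kb), had 1.67 to 3.47 CPM in Control colons (median 2.12) and 1.25 to 2.65 CPM in GWI colons (median 2.05). Its log2 fold change was −0.30 (SE 0.20, adjusted p = 0.259), and most mice of both groups lay in a shared range.

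The sequences of these 2 RNAs and of Snora57 are shown because they contrast the members that fell with the most abundant one that was not called. They were read 5′ to 3′ from the GENCODE M21 transcripts of GRCm38, for Snord118 (chr11:69073427-69073561, plus strand), Snord104 (chr11:106500993-106501062, plus strand) and Snora57 (chr19:8888538-8888685, minus strand). Capitals mark box C (TGATG, searched in the first 60 bases) and box D (CTGA, in the last 40 bases), or for Snora57 the ACA within the last 10 bases, on the transcribed strand only.
Snord118: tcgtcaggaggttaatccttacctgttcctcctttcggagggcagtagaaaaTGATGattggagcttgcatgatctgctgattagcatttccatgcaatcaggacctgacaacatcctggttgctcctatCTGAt
Snord104: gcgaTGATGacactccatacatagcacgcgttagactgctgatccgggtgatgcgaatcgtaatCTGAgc
Snora57: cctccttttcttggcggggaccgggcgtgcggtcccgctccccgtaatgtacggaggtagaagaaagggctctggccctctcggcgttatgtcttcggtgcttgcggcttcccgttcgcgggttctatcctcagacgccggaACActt
Both C/D boxes were found in 90 of the 97 box C/D members with a sequence and in 5.05% of the 10765 annotated transcripts of at most 300 bases. The ACA was found in 36 of 38 box H/ACA members and in 17.2% of those transcripts.

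The box H/ACA snoRNAs guide pseudouridylation. Snora57 had 1.25 to 3.35 CPM in Control colons (median 2.32) and 0.483 to 1.43 CPM in GWI colons (median 0.911), a log2 fold change of −1.12 (SE 0.25, adjusted p = 0.00512). The highest GWI mice, GWI 5, GWI 7 and GWI 8, reached the lowest Control mouse, Control 2, and 5 of 8 GWI mice lay below every Control mouse. Transcripts of Gm26132 share 16.2% of its windows. Snora17 and Snora28 did not pass, with log2 fold changes of −0.12 (adjusted p = 0.763) and −0.33 (adjusted p = 0.457). All 78 windows of Snora28 also occur in transcripts of Eif5, so its count is uncertain. The tested H/ACA member with a positive value, Snora31, was named after its values were seen; its log2 fold change was 0.62 (SE 0.38, adjusted p = 0.227), and limma-voom called it higher (1.12, adjusted p = 0.0169).

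The scaRNAs guide modification of spliceosomal RNAs in Cajal bodies. Scarna2 (chr3:108554338-108554751, minus strand) was the tested scaRNA among 9. It had 3.41 to 11.1 CPM in Control colons (median 5.29) and 1.67 to 3.51 CPM in GWI colons (median 1.98), and it fell with a log2 fold change of −1.41 (SE 0.24, adjusted p = 0.00102). The GWI mice were close together except GWI 8, whose level was just above that of Control mice 1 and 6, and the other 7 GWI mice lay below every Control mouse. No window of 50 bases of Scarna2 occurs in transcripts of another gene. The 9 scaRNAs together summed to 4.04 to 13.4 CPM (median 5.85) in Control and 1.98 to 4.10 CPM (median 2.68) in GWI colons. Most of this came from Scarna2, and the 8 others summed to medians of 0.632 and 0.609 CPM.

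Rpph1 is the catalytic RNA of RNase P, which trims the 5′ ends of transfer RNAs. It had 0.938 to 2.86 CPM in Control colons (median 1.19) and 0.26 to 1.51 CPM in GWI colons (median 0.442), a log2 fold change of −1.26 (SE 0.33, adjusted p = 0.0118). All GWI mice except GWI 5 lay below every Control mouse, and Control 9 was the highest. The gene (chr14:50807449-50807767, minus strand) overlaps an annotated exon of Ccnb1ip1 on the same strand, and 68.1% of its windows also occur in transcripts of that gene, so its count is uncertain.

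Rn7sk, the RNA that holds the elongation factor P-TEFb inactive, did not pass the test. It had 0.882 to 3.35 CPM in Control colons (median 1.20) and 0.364 to 1.55 CPM in GWI colons (median 0.727), a log2 fold change of −0.75 (SE 0.31, adjusted p = 0.0804). The GWI mice GWI 4 and GWI 6 lay within the Control range and the other 6 lay below it. Without GWI 4 or without GWI 6 the log2 fold change was −0.92 and Rn7sk passed the test. Without Control 9, the highest Control mouse, it was −0.51 (adjusted p = 0.156), and by limma-voom it was −0.35 (adjusted p = 0.265). Transcripts of Gm24447 share 68.1% of the windows of Rn7sk (chr9:78175303-78175633, minus strand). Rmrp, the RNA of RNase MRP, failed the filter. It had 3 to 12 counts in Control mice (median 6) and 2 to 9 counts in GWI mice (median 4), and the annotation gives that symbol to 2 overlapping genes. With the filter left out its log2 fold change was −0.34 (SE 0.35, adjusted p = 0.51).

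The position of the noncoding genes was not used to choose them. Of the 149 snoRNAs and scaRNAs, 70 lie in introns of other genes, 67 overlap exons of other genes on the same strand, 7 lie outside other genes and 5 have a symbol with more than 1 annotated gene. Of the intronic genes, Snord42a, Snord4a and Snora73b overlap an exon on the opposite strand. Of the 7 outside other genes 5 were tested, and these hold the 3 called genes Snord118, Scarna2 and Snora57. That is 60% of the 5, against 13.5% of all tested genes that were lower. Snord118 passed the filter through the Control mice alone, so this share describes the tested genes and not the position. The 5 log2 fold changes ran from −3.17 to −0.12. The 7 genes together summed to 10.1 to 22.3 CPM in Control colons (median 12.2) and 4.42 to 9.33 CPM in GWI colons (median 6.24), and the groups did not overlap. This sum includes the 3 called genes and was not computed without them, so it does not describe the position as a whole. The 70 intronic genes, of which 24 had no count in any mouse, summed to 3.64 to 12.5 CPM in Control (median 4.87) and 5.31 to 9.09 CPM in GWI colons (median 6.97), with overlapping groups. The 67 genes in exons, 48 of them without a count, had medians of 2.53 and 2.89 CPM. Whether these groups of genes differ from each other was not tested.

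**Figure D3:**
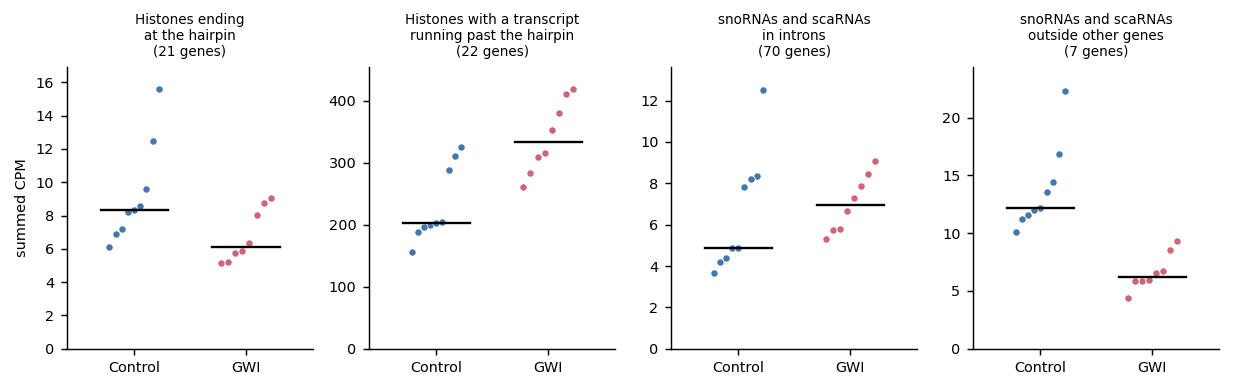
Summed CPM in each colon, on linear axes that start at 0, for histone genes whose annotated transcript ends at the hairpin (21 genes) or runs past it (22 genes) and for snoRNAs and scaRNAs in introns (70 genes) or outside other genes (7 genes). Each point is 1 of 9 Control or 8 GWI mice and each line is the group median; the last sum ranged from 10.1 to 22.3 CPM in Control and from 4.42 to 9.33 CPM in GWI mice.

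The annotated 3′ ends of the histone transcripts also varied. A histone hairpin was searched as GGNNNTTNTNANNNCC with the outer 6 bases on each side fully paired, on the transcribed strand only. It was found in 90 of 58797 protein-coding transcripts (0.153%), of which 46 belonged to members, which have 70 such transcripts. The transcript ended within 100 bases of the hairpin in 21 histone genes, ran on further in 22, had a longer end without the hairpin in 5 and had neither in 20. For those 20 the annotation gives a short 3′ end or none, so a hairpin may be there and not annotated. A gene with several transcripts was counted by the longer end, so that Hist1h2bp is among the 5 although another of its transcripts ends 38 bases after a hairpin. Of these groups 3, 16, 2 and 1 genes were tested. Genes that run on past the hairpin gave 2 lower and 2 higher calls, 12.5% of the 16 in each direction against 13.5% and 13.4% of all tested genes. The genes that end at it gave 1 lower call (Hist2h2ac), and Hist1h1b was the tested gene of the last group. The hairpins found in the annotated transcripts of called genes are shown to compare them, in lower case, with the number of annotated bases that follow. Hist1h1b is not shown because its annotated transcript stops at the stop codon, which leaves no 3′ end to search.
Hist1h1c: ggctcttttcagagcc
Hist1h2be: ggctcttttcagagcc
Hist3h2a: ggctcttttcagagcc
Hist2h2ac: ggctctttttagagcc
Hist1h4d: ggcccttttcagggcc
The annotation continues for 840 bases after the hairpin in Hist1h1c, 1861 in Hist1h2be, 1643 in Hist3h2a, 770 in Hist1h4d and 57 in Hist2h2ac. A poly(A) signal (AATAAA or ATTAAA) stood in the last 40 bases of the transcripts of Hist1h1c, Hist1h2be and Hist3h2a and not in those of Hist1h4d and Hist2h2ac, against 48.7% of all protein-coding transcripts.

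Summed over the 21 genes that end at the hairpin, the level was 6.11 to 15.6 CPM in Control colons (median 8.34) and 5.15 to 9.08 CPM in GWI colons (median 6.11), with 4 GWI mice below every Control mouse. Over the 22 genes that run on past it, the sum was 156 to 325 CPM in Control (median 202) and 260 to 419 CPM in GWI colons (median 334), with 4 GWI mice above every Control mouse. Most of the latter sum came from Hist1h1c. Over the 5 longer ends without the hairpin, which include Hist1h2bc, the medians were 156 and 176 CPM, and over the 20 remaining genes they were 3.92 and 2.37 CPM. By position, 54 of the histone genes lie on chromosome 13, 10 on chromosome 3, 3 on chromosome 11 and 1 on chromosome 6.

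Members that failed the filter had few counts. The histone genes with the highest totals over the 17 mice were Hist1h4m (185 counts), Hist4h4 (171) and Hist1h4k (151). Among the snoRNAs they were Snord123 in an intron of Snhg18 (157 counts), Snord100 in an exon of Rps12 (143) and Snord72 in an intron of Rpl37 (128). Of the host genes of named snoRNAs, Rps12 fell (log2 fold change −0.80, adjusted p = 0.0012), as did Rpl37 (−0.62, adjusted p = 0.0233) and Eif5, whose exon holds Snora28 (−0.35, adjusted p = 0.034). Snhg18 was not called (−0.26, adjusted p = 0.138).

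With the filter left out, 19717 genes could be tested, of which 1674 (8.49%) were lower and 1657 (8.4%) were higher. The median log2 fold change was then −0.10. The 10 calls were kept, and 5 further members passed: Hist1h4b, Hist1h4n, Snora78 and Snord13 were lower and Snord35a was higher. They were named after their values were seen. Snord13, which takes part in an acetylation of small-subunit ribosomal RNA and lies outside other genes (chr8:31149864-31149967), had 2 to 19 counts in Control mice (median 9) and 0 to 5 counts in GWI mice (median 2), with an adjusted p of 0.0085. Hist1h4b had 1 to 20 counts in Control mice (median 13) and 0 to 6 counts in GWI mice (median 1.5), with an adjusted p of 0.00953, and 75.9% of its windows also occur in transcripts of other genes. In both genes the groups overlapped. Snord35a, in an intron of Rpl13a, had at most 2 counts in a Control mouse and at most 8 in a GWI mouse (adjusted p = 0.0335), so it rests on very few reads.

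By class, the fit without the filter had 6 lower and 2 higher calls among 62 histone genes, and 44 of the 62 log2 fold changes were below 0. Among 73 snoRNAs and scaRNAs it had 5 lower and 1 higher, and 38 of 73 were below 0. Of the 3 polymerase III RNAs 1 was lower. Over all 19717 genes of that fit 8.49% were lower and 8.4% higher, and the median log2 fold change was −0.10. The share of all genes below 0 is not given here, so the counts below 0 describe the members alone. Among genes that the filter had removed, the 16 histones that end at the hairpin had a median log2 fold change of −0.72. The 16 histones with neither a hairpin nor a longer end in the annotation had −0.74. The 5 histones that run past the hairpin had −0.84, and the 3 with a longer end without the hairpin had 0.12. For the snoRNAs and scaRNAs the same medians were 0.03 in introns (45 genes), 0.32 in exons (18 genes) and −1.14 outside other genes (2 genes).

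Proteins that help to make histone messages or act on them were listed with the histones. Of 17 factors that help to make, cut, bind or degrade these messages, 2 rose and 1 fell, and the median log2 fold change was −0.03. Of all tested genes 13.4% rose and 13.5% fell, so neither count is above the share in the whole table. Sympk, the scaffold of the cleavage complex, rose (0.48, adjusted p = 0.0106) and was higher in every GWI than in every Control mouse. Cpsf1 also rose (0.42, adjusted p = 0.0196), and the cap-binding subunit gene Ncbp2 fell (−0.30, adjusted p = 0.00942). Of 11 replacement histone genes, most of which are also expressed outside S phase from polyadenylated messages, 2 fell and 0 rose, with a median of −0.32; at an unadjusted p under 0.05, 4 were lower. The 2 were H2afv (−0.44, adjusted p = 0.00968) and H2afy2 (−0.78, adjusted p = 0.019).

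Of 23 S phase and proliferation genes 2 fell and 0 rose, with a median log2 fold change of −0.05. This is below the 13.5% of all tested genes that fell and the 13.4% that rose. The 2 that fell were Dut (−0.37, adjusted p = 0.0331) and Tyms (−0.52, adjusted p = 0.0458), enzymes of thymidine nucleotide synthesis. The summed level of the list was 463 to 1210 CPM in Control colons (median 747) and 562 to 1100 CPM in GWI colons (median 700), and Mki67 was the most abundant gene. With a score of this list as a covariate, the 10 called members kept their calls.

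Genes for proteins of the snoRNA particles and of Cajal bodies were listed with the snoRNAs. Of 20 tested genes 7 fell and 0 rose, with a median log2 fold change of −0.23. At an unadjusted p under 0.05, 10 were lower and 1 was higher. Of all tested genes 13.5% fell and 13.4% rose. The assembly factors Znhit6 (−0.57, adjusted p = 0.00441), Znhit3 (−0.72, adjusted p = 0.00725) and Pih1d1 (−0.25, adjusted p = 0.0276) fell, as did the H/ACA core proteins Dkc1 (−0.61, adjusted p = 0.0133) and Nhp2 (−0.51, adjusted p = 0.0149). Of 18 tested snoRNA host genes 8 fell and 0 rose, with a median of −0.39. The smallest p-values were those of Snhg11 (−1.19, adjusted p = 0.00549), Snhg8 (−0.67, adjusted p = 0.0058), Epb41l4aos (−0.68, adjusted p = 0.00821), Gas5 (−0.59, adjusted p = 0.0114) and Zfas1 (−0.45, adjusted p = 0.0138). Their messages are spliced and polyadenylated, unlike the snoRNAs they carry.

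Of 11 protein subunits of RNase P and RNase MRP, 4 fell and 0 rose, with a median of −0.27. These were Rpp38 (−0.88, adjusted p = 0.00592), Pop5 (−0.46, adjusted p = 0.00781), Rpp30 (−0.65, adjusted p = 0.0125) and Rpp14 (−0.48, adjusted p = 0.0193). Of 7 genes of the 7SK particle and P-TEFb, Larp7, which binds the end of 7SK RNA, fell (−0.47, adjusted p = 0.00836), and the median was 0.02. Other RNAs without a regular tail had 24 entries, of which 8 had no count in any mouse and 2 were tested. The median of those 2, Malat1 and Neat1, was −0.11. By edgeR and DESeq2 0 were called and 0 had an unadjusted p under 0.05, while limma-voom called 1 lower and 1 higher. A further 14 entries of this list had counts and failed the filter. Without the filter 4 of these 14 were lower and 0 were higher, with a median of −0.74. Over all 19717 genes of that fit 8.49% were lower and 8.4% higher, with a median of −0.10. The 4 were named after their values were seen. Rnu12, the U12 RNA of the minor spliceosome, had 4 to 11 counts in Control mice (median 6) and 0 to 3 counts in GWI mice (median 1), and no GWI mouse reached the lowest Control mouse (adjusted p = 0.0158). An entry of the U3 RNA Rnu3b1 had medians of 7 and 0 counts (adjusted p = 0.0141), one of the U3 RNA Rnu3a had 2 and 0 (adjusted p = 0.0352) and the U2 RNA Rnu2-10 had 3 and 0 (adjusted p = 0.0475). Terc, the telomerase RNA, had medians of 3 and 3 counts (log2 fold change −0.34, adjusted p = 0.551), and Rnu73b had 3 and 5.5 (0.43, adjusted p = 0.476). Across these lists together edgeR called 25 genes lower and 2 higher, DESeq2 28 and 2, and limma-voom 36 and 10. In the order given, the lists held 17, 11, 23, 20, 18, 11, 7 and 2 tested genes. Over all 14146 tested genes edgeR called 13.5% lower and 13.4% higher. Limma-voom called 4180 lower and 3911 higher, so its counts in the lists stand against a larger share than those of edgeR. The DESeq2 counts over all tested genes are not given here. The genes of the mitochondrial ribosomal RNAs were not analysed here.

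The libraries differed in ways that touch these counts. Control 9 had the largest share of counts in its 10 most abundant genes (23.1%) and the lowest TMM factor (0.7986), and it was the highest Control mouse for 19 of the 31 tested members. GWI 1 was the lowest GWI mouse for 15 of them, and GWI 5 was the highest for 13. Without Control mice 1 and 9 the 10 called members kept their calls.

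Markers of cell types checked the tissue label. Colon epithelium genes summed to 27100 to 44800 CPM in Control colons (median 32900) and 33000 to 49300 CPM in GWI colons (median 39800). Car1 was the most abundant. By edgeR 4 of 12 rose and 0 fell, against 13.4% and 13.5% of all tested genes, and the median log2 fold change was 0.39. At an unadjusted p under 0.05, 7 were higher, and DESeq2 called 6 higher and limma-voom 9. Over all 14146 tested genes limma-voom called 4180 lower and 3911 higher. Smooth muscle genes summed to 3690 to 23900 CPM in Control (median 11600) and 3660 to 11800 CPM in GWI colons (median 5140), with Myh11 the most abundant, and they were highest in Control 6 and lowest in GWI 3. Of these 10 smooth muscle genes 7 fell and 0 rose, with a median of −0.91, and DESeq2 called 9 lower and limma-voom 10. With a smooth muscle score as a covariate, the 10 called members kept their calls. The part of the epithelial genes in the results was not tested.

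Genes named from the remaining lists were chosen after their values were seen. The planned enteric glia list had 5 genes, of which 1 is not reported here, so the counts do not cover the whole list. Over the 4 others the median was −0.86, and Foxd3 fell (−1.28, adjusted p = 0.0248). Sox10 had −0.98 (adjusted p = 0.0525), Gfap −0.74 (adjusted p = 0.0674) and S100b 0.36 (adjusted p = 0.624), while DESeq2 and limma-voom each called 3 of the 4 lower. Together the 4 summed to 24.9 to 102 CPM in Control (median 55.2) and 21.5 to 60.4 CPM in GWI colons (median 38.7), with Gfap the most abundant. The 7 enteric neuron genes had a median of −0.58 and summed to 59.3 to 426 CPM in Control (median 195) and 80.9 to 278 CPM in GWI colons (median 134), with Uchl1 the most abundant. A single gene fell among 8 macrophage genes (Mrc1), 5 fibroblast genes (Dcn) and 5 endothelial genes (Kdr), and Cidec rose among 4 adipocyte genes. The medians of these lists were −0.35, −0.34, −0.29 and 1.09 in that order. By DESeq2 the lower genes in the first 3 of these lists numbered 2, 1 and 1, and by limma-voom 6, 4 and 3. Over all 14146 tested genes edgeR called 13.5% lower and 13.4% higher, and limma-voom called 4180 lower and 3911 higher. The DESeq2 counts over all tested genes are not given here. Of the 2 tested small intestine genes Fabp6 fell, and the median was −2.55; limma-voom called 0 of the 2, and 1 was lower at an unadjusted p under 0.05 and by DESeq2. That list summed to 2.59 to 635 CPM in Control and 2.08 to 66.8 CPM in GWI colons, with Sis the most abundant. The highest value was that of Control 7, followed by Control 6 at 234 CPM, and without Control 7 the 10 called members kept their calls. By edgeR 0 were called among 7 crypt base genes (median 0.04), 2 B cell genes (−0.13), 7 T cell genes (−0.14), 7 enteric neuron genes (−0.58) and 5 erythroid genes (−0.31). Of these, 1 crypt base gene was lower and 1 was higher at an unadjusted p under 0.05, DESeq2 called 1 crypt base gene lower, and limma-voom called the 7 enteric neuron genes, 1 T cell gene and 1 crypt base gene lower and 1 crypt base gene higher. Exocrine pancreas genes were near 0 in every mouse, with a highest sum of 0.364 CPM and Cpa1 at 0. The part of these cell types in the results was not tested.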

How the data were processed

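RNA of colon tissue from 9 Control and 8 GWI mice was sequenced by the authors as poly(A)-selected paired-end libraries. They trimmed the reads with Trimmomatic 0.36, mapped them to GRCm38 with STAR 2.5.2b, counted unique gene hits with featureCounts and deposited 1 table of raw counts per gene and mouse. The annotation release and the strand setting of the counting are not given in the sources used here, so genes that overlap on opposite strands cannot be told apart. No molecular identifiers are described, so read pairs may be copies of a molecule, and at a few counts per mouse the counting error is large.

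In R 4.3.3, edgeR 4.0.16 was used to filter genes (filterByExpr), to scale libraries (TMM) and to run the robust quasi-likelihood test (glmQLFit, glmQLFTest), with the group as the only term, all 17 mice in the fit and Benjamini-Hochberg adjustment over the 14146 tested genes. Each standard error is the absolute log2 fold change divided by the root of its F value. The fitting was tested on simulated data with known fold changes. Alternatives were 3 other scalings (upper-quartile factors, DESeq2's size factors, library size alone), no filter, at least 10 counts in every mouse, DESeq2 1.42.0, limma-voom with sample quality weights (limma 3.58.1), no robust estimation, the replicate number as a block, scores of smooth muscle or S phase genes as covariates, each mouse left out, Control mice 1 and 9 left out, an unadjusted p under 0.05 with an absolute log2 fold change over 1, and members whose exons overlap another gene left out. No pair of libraries of a group agreed within counting noise, the lowest chi-square per gene over 64 pairs being 9.56. Some column names share a first part that the sources used here do not define, so the 9 Control mice have 6 such parts and the 8 GWI mice 4. In the Control group the median chi-square per gene was 18.9 over the 4 pairs that share one and 119 over the 32 others (74 over the 17 of these without Control mice 1 and 9). In the GWI group it was 38.4 over 5 pairs and 33.3 over the 23 others. The p-values of the fit by mouse take all 17 mice as independent. Chosen after seeing the data were an edgeR fit of counts summed over each part and, after its result was seen, limma-voom with the part as a random block (correlation 0.3).

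The members and the gene lists were chosen with earlier results of these data known. Named genes were, per class, each called member (at most 15 per direction), the 5 tested members with the highest CPM per kb, the 3 untested members with the highest total count, Rmrp, Rpph1 and Rn7sk, at most 5 called genes per direction of each list of interacting genes, and host genes of named snoRNAs. Positions, lengths and sequences come from GENCODE M21, and shared windows of 50 bases were counted over its transcripts. The limit of 100 bases after the hairpin was set after the annotated distances were seen, and the sums by 3′ end and by position were added after the data were examined. Figures were drawn with matplotlib 3.10.9 in Python 3.11.15. For 1 gene of the planned lists the result is not reported here.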

Additional observations from a re-analysis of the deposited data

Results flagged for a closer look

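Single mice stood apart in 4 of 36 groups, counted over the 18 named members that were tested; chance flags about 1 in 20 groups. For Hist3h2a the lowest Control mouse, Control 3, had 8.21 CPM, against 9.26 CPM in the nearest Control mouse. For Hist2h2be it was Control 1 with 9.79 CPM, against 15.5 CPM. Control 9 was the highest Control mouse for Rpph1, with 2.86 CPM against 1.56 CPM in the nearest, and for Rn7sk, with 3.35 CPM against 1.71 CPM.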

How the results depend on the processing

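Each of the 10 called members kept its direction and its call when any of the 17 mice was left out, under the other scalings, without the filter, by DESeq2 and limma-voom, without robust estimation, with the replicate block, with either covariate, without Control mice 1 and 9 and by limma-voom with the shared first part of the column names as a random block. With counts summed over that part, which leaves 6 Control and 4 GWI units, 0 members were called by edgeR, and the table had 0 lower and 6 higher calls (1658 and 1348 at an unadjusted p under 0.05). Histone genes, snoRNAs and scaRNAs and the pathway lists then had 0 calls in either direction, Rpph1 was at −1.44 (adjusted p = 0.119), and Hist1h2bc (−0.03) and Hist1h4h (−0.05) turned sign. With the random block 3566 genes were lower and 3325 higher, 8 pathway genes were higher, and Hist2h2be (0.04) and Snora28 (0.17) turned sign. Both fits were chosen after seeing the data. With at least 10 counts in every mouse 4 calls remained and the other 6 members were not tested, which left 1 lower histone gene and 1 lower snoRNA or scaRNA. The unadjusted p with a log2 fold change over 1 kept 8, with 1 histone gene higher, and counted 250 lower and 92 higher genes overall and 1 lower and 0 higher in the pathway lists (25 lower and 2 higher with edgeR). Leaving out members whose exons overlap another gene kept 6, of which 2 were lower and 1 was higher among the histone genes. Genes called overall (1903 lower, 1889 higher) moved to 2992 and 1214 with upper-quartile factors and to 4180 and 3911 by limma-voom. Limma-voom called 7 histone genes lower and 3 higher, 1 snoRNA higher and 10 pathway genes higher. Further members passed in places: Hist1h1e by limma-voom (also with the random block), with the replicate block, without Control 9 and without Control mice 1 and 9; Hist3h2ba by both limma-voom fits, with upper-quartile factors and without GWI 1 or GWI 8; Hist1h4c by limma-voom, with the smooth muscle covariate and without Control 1; and Hist2h4 and Snora31 by limma-voom. Without the filter 5 of 73 snoRNAs and scaRNAs were lower and 1 was higher, against 8.49% lower and 8.4% higher of all genes in that fit. In the pathway lists 1 gene was higher with upper-quartile factors or library size alone, 48 were lower and 6 higher with the smooth muscle covariate, and 4 were higher without Control mice 1 and 9; with 1 mouse left out the higher genes numbered 2 to 4. Rn7sk passed with upper-quartile factors (−0.84) and the smooth muscle covariate (−1.06), and ranged from −0.92 to −0.51 with 1 mouse left out (adjusted p 0.049 to 0.156, the highest without Control 9). It was −0.35 by limma-voom and −0.29 with the random block (adjusted p 0.265 and 0.474). Among members that were not called, the sign turned for Hist1h2bc with upper-quartile factors (−0.05) and the smooth muscle covariate (−0.05), for Hist2h2be (0.04) and Snora28 (0.07) by limma-voom and for Hist1h4i (0.05) without Control mice 1 and 9. With 1 mouse left out Hist1h2bc ranged from −0.01 to 0.11, Hist2h2be from −0.12 to 0.01, Hist1h4i from −0.25 to 0.02, Hist1h4h from −0.06 to 0.22 and Snora17 from −0.29 to 0.00. The cause of these changes was not tested. With the replicate block 814 genes were lower overall and 10 in the pathway lists, and Hist2h2be was at 0.02; over 8 shared numbers the deviations of the paired mice correlated at −0.51 to 0.11 and 0 mice correlated best with their own number, so the mice share only a number. Members that failed the filter had few counts, which limits their values.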
